A study of Homo sapiens with 43 samples.

Results

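The genes described here encode 40 proteins found in stress granules, RNA-binding proteins and their partners. They were listed by name and not by any value of a row, though with earlier results of these data known. All 40 had a row among the 58347 gene rows of the count tables. They were read in 6 groups of RNA-seq libraries, and in the crosslinking tables where their rows held counts. The study used HEL cells, which come from a human erythroleukemia. A stable transduction had given them a FLAG-tagged U2AF1, either the wild type (WT) or a form with the change S34F or Q157R. U2AF1 pairs with U2AF2 to mark the end of introns for splicing, and both changes are found in leukemias. Induced cells had received doxycycline at 1 µg/ml for 48 hours. Uninduced cells of the same 3 lines served as controls in the RNA-seq part. RNA-seq, on total RNA depleted of rRNA, held 4 libraries of the WT line (2 without and 2 with doxycycline), 3 of the S34F line (1 without, 2 with) and 3 of the Q157R line (1 without, 2 with). The crosslinked libraries were 7 eCLIP libraries from induced WT cells, 3 made with an anti-FLAG antibody for the transduced U2AF1 and 4 with an antibody against its partner U2AF2, and 17 freCLIP libraries from induced cells of the 3 lines. In freCLIP the membrane was cut into a light part of 37 to 65 kD and a heavy part of 65 to 110 kD. Each genotype is 1 transduced line, so a difference between genotypes and a difference between lines cannot be told apart, and neither can doxycycline and the induced protein in a comparison of induced with uninduced cells. Replicates are labelled biological, with no word on separate cultures. The spread behind each p-value is therefore that of these samples alone and could be technical.

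Stress granules are assemblies of RNA and protein that form in the cytoplasm when translation initiation stalls, most often after phosphorylation of the translation factor eIF2. Untranslated mRNAs then bind scaffolds, above all G3BP1 and G3BP2, and the condensate takes up poly(A)-binding proteins, helicases, repressors and initiation factors. Many of these proteins have other tasks in unstressed cells: TIA1 and TIAL1 bind U-rich RNA and regulate splicing in the nucleus, and the FET proteins and TDP-43 are mainly nuclear. The measurements here are of mRNA levels, so they do not show whether granules were present.

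The RNA-seq libraries held 22392303 to 40370092 gene counts, the eCLIP libraries 306711 to 1148212 and the freCLIP libraries 38415 to 730996. Levels below are CPM, counts relative to a library's gene total times its TMM factor, a scaling factor set from the bulk of genes. That factor was 1.13 in both induced S34F libraries, 0.978 and 0.995 in the induced WT libraries and 0.928 to 1.03 in the others, so TMM lowers the induced S34F levels against plain library totals. The line's own markers were present: 10 of 14 erythroid genes and 7 of 8 megakaryocytic genes stood at 1 CPM or more in every RNA-seq library, as did 2 of 5 monocyte and granulocyte genes (LYZ, ITGAM), 2 of 6 stroma and epithelium genes (KRT8, KRT18) and 0 of 6 T and B cell genes, of which MS4A1 was at 0 in every one. U2AF1 stood at 13.4 and 12.6 CPM in uninduced and 19.1 and 11 in induced WT cells, 21.2 in uninduced and 18.0 and 19.4 in induced S34F cells, and 22.1 in uninduced and 21.5 and 15.2 in induced Q157R cells. Its difference with induction in the WT line was 0.21 ± 0.29 (log2, edgeR adjusted p = 0.926), so no rise of this row with doxycycline was detected. Reads that map to more than 1 place, 11.9% to 17.6% of the RNA-seq reads, stand outside the gene rows. Whether U2AF1 reads are among them was not tested, so this row does not show whether the transduced U2AF1 was induced. U2AF2 stood at 378 and 278 CPM in induced WT and 218 and 161 in induced S34F cells, -0.79 ± 0.13 with the replicate number as a block (edgeR adjusted p = 0.00231; 0.112 without it).

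Every member was expressed in all 10 libraries. Compared per kilobase of annotated exon, on the mean of the 10 libraries, PABPC1, the main cytoplasmic poly(A)-binding protein, and YBX1, a cold shock domain protein that packages mRNA, stood highest at 704 and 687 CPM per kb. CNBP, a zinc knuckle protein, followed at 180.2, LARP1, which holds mRNAs with a 5' terminal oligopyrimidine tract, at 131, and PRRC2A at 123 CPM per kb. G3BP2 and CAPRIN1 lay at 55.3 and 65.4, G3BP1 at 36.7 and TIA1 at 13.9 CPM per kb. The lowest were ATXN2 at 8.52, IGF2BP3 at 7.49 and HDAC6 at 6.73 CPM per kb. The ratio of the highest to the lowest library ran from 1.25 in TIA1 to 2.77 in DDX1, with ELAVL1 at 2.39, YBX1 at 2.44 and TAF15 at 2.43.

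**Figure D1:**
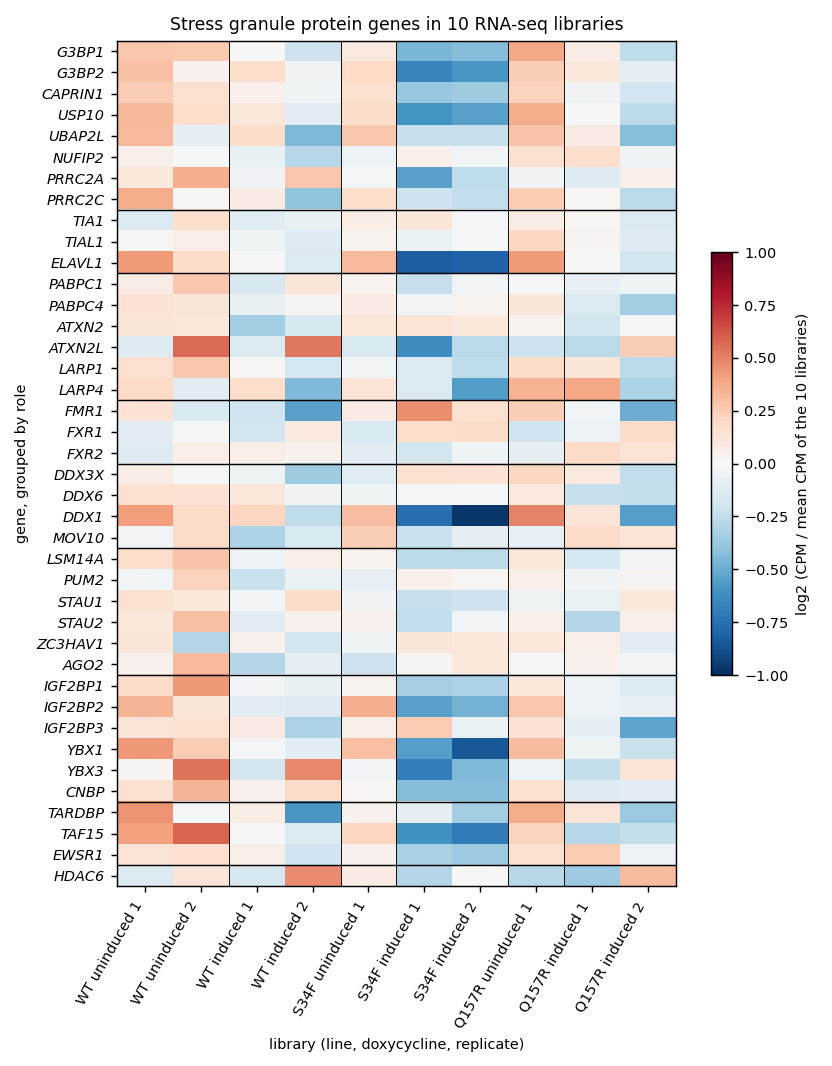
Each cell is the log2 of a gene's CPM over its mean in the 10 RNA-seq libraries (colour scale from -1 to 1), with genes in rows grouped by role and libraries in columns by line, doxycycline and replicate. The induced S34F columns are darkest blue at ELAVL1, DDX1, YBX1, YBX3, G3BP2, USP10 and TAF15, while FMR1 is red there, and several genes (ATXN2L, HDAC6, YBX3) also differ between replicate 1 and replicate 2.

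Induced S34F cells were set against induced WT cells to ask which members differed with the S34F protein. A group of members from several roles stood lower in S34F cells, ELAVL1, DDX1, YBX3 and G3BP2 by 1.62-fold to 1.82-fold, and FMR1 stood 1.60-fold higher. These differences passed the test only where the replicate number was a block in the fit. In the fit with one mean per group, 0 of 40 members passed the adjusted threshold of 0.05, where 1.67% of the 21300 genes tested were called, with 13 members at an unadjusted p under 0.05 (23.3% of all genes) and 6 called by DESeq2 (10.7% of the genes it gave an adjusted p). With the replicate number as a block, 10 members fell (G3BP2, USP10, PRRC2A, ELAVL1, ATXN2L, DDX1, YBX1, YBX3, CNBP and TAF15) and FMR1 rose. These 11 are 27.5% of the members, beside 22.4% of all genes called with the block, a share near the background for both directions together. By direction, 2036 of the 21300 genes rose and 2743 fell, so the members' calls lean more to the lower side. The median log2 fold change of the members was -0.15 that of the 13602 protein-coding genes -0.16 and that of all genes tested 0.00. Of the 40, 18 were lower in S34F with no overlap between the libraries (27.3% of all genes) and 9 higher (28.9%). Scaling the libraries on protein-coding genes alone moved the protein-coding median by 0.14 and left 20 members lower and 20 higher, where 26 and 14 stood before. With plain library totals in place of TMM the protein-coding median moved by 0.20 and the members' median turned to 0.05, with 19 lower and 21 higher. The 10 members that fell stood from -0.32 in PRRC2A to -0.66 in DDX1 there, and FMR1 at 0.88. These members were picked for passing, and this scaling moves all genes by about the same amount. That they kept their sign is therefore no test of the scaling. Beside these values, the share of reads counted under no feature was 33.6 ± 0.14% with S34F and 22.7 ± 0.029% with WT (SD, n = 2 each, induced cells). Whether such reads lie in introns or between genes was not tested, nor was the part of this share in the members' levels. In bulk libraries, less of an mRNA per cell and fewer cells that hold it cannot be told apart.

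Among the scaffolds, G3BP2, which nucleates granules together with G3BP1, and its partner USP10, a deubiquitinase that restrains their assembly, stood lowest in induced S34F cells. G3BP2 (ENSG00000138757.14; chromosome 4, 75642782 to 75724525, minus strand, GRCh38) stood at 486 and 409 CPM in uninduced and 449 and 387 in induced WT cells, 456 in uninduced and 251 and 265 in induced S34F cells, and 472 in uninduced and 427 and 373 in induced Q157R cells. Both induced S34F libraries lay below every other library. The difference from induced WT was -0.70 ± 0.17 without the block (edgeR adjusted p = 0.0727) and -0.69 ± 0.13 with it (edgeR adjusted p = 0.00506). USP10 stood at 262 and 235 CPM in uninduced and 225 and 193 in induced WT cells, 237 in uninduced and 138 and 143 in induced S34F cells, and 269 in uninduced and 208 and 173 in induced Q157R cells, with both induced S34F libraries again the lowest. Its difference was -0.57 ± 0.17 without the block (edgeR adjusted p = 0.103) and -0.57 ± 0.13 with it (edgeR adjusted p = 0.0117). PRRC2A, a large disordered protein that binds methylated mRNA, stood at 1097 and 1361 CPM in induced WT and 773 and 943 in induced S34F cells, -0.52 ± 0.19 without the block (edgeR adjusted p = 0.166) and -0.52 ± 0.13 with it (edgeR adjusted p = 0.0155). CAPRIN1, which joins G3BP1 and promotes condensation, was at 521 and 489 CPM in induced WT and 387 and 393 in induced S34F cells, and G3BP1 at 454 and 395 CPM in induced WT and 331 and 337 in induced S34F cells. Neither passed either fit, with -0.37 ± 0.15 (edgeR adjusted p = 0.186; 0.0551 with the block) for CAPRIN1 and -0.34 ± 0.17 (edgeR adjusted p = 0.26; 0.0938 with the block) for G3BP1. UBAP2L, which binds G3BP1, was at -0.13 ± 0.27, NUFIP2 at 0.18 ± 0.16 and PRRC2C at -0.09 ± 0.22, and none of the 3 passed.

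TIA1 and TIAL1, the granule proteins best known for splicing, differed little, while ELAVL1 (HuR), which binds AU-rich elements and stabilises mRNAs, was lower. ELAVL1 (ENSG00000066044.14; chromosome 19, 7958579 to 8005659, minus strand) stood at 244 and 206 CPM in uninduced and 182 and 165 in induced WT cells, 228 in uninduced and 103 and 104 in induced S34F cells, and 245 in uninduced and 182 and 160.0 in induced Q157R cells. Both induced S34F libraries lay below all 8 others. Of its exon bases 12.8% lie under a gene on the other strand. The difference from induced WT was -0.75 ± 0.16 without the block (edgeR adjusted p = 0.0601) and -0.74 ± 0.13 with it (edgeR adjusted p = 0.00308). TIA1 was at 84.7 and 87.3 CPM in induced WT and 100.3 and 91.2 in induced S34F cells (0.15 ± 0.17, edgeR adjusted p = 0.612, or 0.484 with the block), and TIAL1 at 141 and 133 CPM in induced WT and 139 and 143 in induced S34F cells (0.04 ± 0.15, edgeR adjusted p = 0.883, or 0.834 with the block).

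Of the proteins that bind poly(A) tails and mRNA ends, ATXN2L fell with the block while its paralog ATXN2 passed in neither fit. ATXN2L (ENSG00000168488.18; chromosome 16, 28823035 to 28837237, plus strand) stood at 404 and 653 CPM in uninduced and 401 and 635 in induced WT cells, 397 in uninduced and 287 and 367 in induced S34F cells, and 383 in uninduced and 367 and 523 in induced Q157R cells. Replicate 2 exceeded replicate 1 in each of the 4 groups with 2 libraries, and within each number the S34F library was the lower. The difference was -0.66 ± 0.32 without the block (edgeR adjusted p = 0.25) and -0.63 ± 0.14 with it (edgeR adjusted p = 0.00797). Of its exon bases 68.9% lie under genes on the other strand, AC145285.6 and AC133550.1. Whether reads were counted by strand is not given in the sources used here, so the reads of such genes may be mixed. ATXN2, which binds poly(A)-binding protein, was at 110.2 and 126 CPM in induced WT and 154 and 151 in induced S34F cells (0.37 ± 0.15, edgeR adjusted p = 0.197, or 0.0609 with the block). PABPC1, PABPC4, LARP1 and LARP4 differed by -0.24 to 0.02 and passed neither fit.

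FMR1 was the member that rose. It encodes FMRP, a repressor of translation whose paralogs are FXR1 and FXR2. FMR1 (ENSG00000102081.13; chromosome X, 147911951 to 147951125, plus strand) stood at 135 and 109 CPM in uninduced and 106 and 83.5 in induced WT cells, 129 in uninduced and 168 and 136 in induced S34F cells, and 144 in uninduced and 119.7 and 86.5 in induced Q157R cells. Its highest library was induced S34F replicate 1, and both induced S34F libraries lay above both induced WT libraries. The difference was 0.68 ± 0.23 without the block (edgeR adjusted p = 0.132) and 0.68 ± 0.13 with it (edgeR adjusted p = 0.00443). FXR1 was at 232 and 281 CPM in induced WT and 297 and 299 in induced S34F cells (0.22 ± 0.17, edgeR adjusted p = 0.454, or 0.229 with the block), and FXR2 at 45.5 and 44.8 CPM in induced WT and 38.3 and 42.1 in induced S34F cells (-0.17 ± 0.16, edgeR adjusted p = 0.564, or 0.426 with the block). The paralogs' values lay on either side of 0, and neither passed.

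Among the helicases, DDX1, a subunit of the tRNA ligase complex that also enters granules, had the lowest fold change of the 40 members. DDX1 (ENSG00000079785.14; chromosome 2, 15591178 to 15631111, plus strand) stood at 290.1 and 248 CPM in uninduced and 252 and 182 in induced WT cells, 268 in uninduced and 128 and 110.3 in induced S34F cells, and 306 in uninduced and 237 and 148 in induced Q157R cells. The S34F libraries lay below the other 8, and Q157R replicate 2 was the next. The difference from induced WT was -0.86 ± 0.26 without the block (edgeR adjusted p = 0.108) and -0.85 ± 0.15 with it (edgeR adjusted p = 0.00293). DDX3X, which unwinds the 5' ends of mRNAs for initiation, was at 359 and 289.6 CPM in induced WT and 413 and 409 in induced S34F cells (0.34 ± 0.18, edgeR adjusted p = 0.293, or 0.0831 with the block). The P-body helicase DDX6 and MOV10, a helicase that works with AGO2, differed by -0.05 and 0.08. No repressor or adaptor passed either fit: LSM14A, which binds DDX6, was at -0.26 ± 0.15, STAU1, a double-stranded RNA-binding protein, at -0.30 ± 0.16, and AGO2, the slicer of small-RNA silencing, at 0.26 ± 0.17, with adjusted p of 0.29 to 0.375 (edgeR) and 0.134 to 0.18 with the block. PUM2, STAU2 and ZC3HAV1 lay between -0.11 and 0.18.

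The cold shock proteins fell together with the block. YBX1 (ENSG00000065978.18; chromosome 1, 42682427 to 42702349, plus strand) stood at 1791 and 1582 CPM in uninduced and 1315 and 1229 in induced WT cells, 1637 in uninduced and 908 and 735 in induced S34F cells, and 1656 in uninduced and 1280.4 and 1136 in induced Q157R cells. Both induced S34F libraries were the lowest of the 10, and the difference from induced WT was -0.63 ± 0.18 without the block (edgeR adjusted p = 0.0939) and -0.64 ± 0.13 with it (edgeR adjusted p = 0.00677). YBX3 stood at 479 and 684 CPM in uninduced and 413 and 657 in induced WT cells, 462 in uninduced and 290.5 and 346 in induced S34F cells, and 451 in uninduced and 399 and 517 in induced Q157R cells. As for ATXN2L, replicate 2 was the higher in each pair, and the induced S34F libraries were the lowest. Its difference was -0.75 ± 0.28 without the block (edgeR adjusted p = 0.16) and -0.72 ± 0.14 with it (edgeR adjusted p = 0.00504). CNBP stood at 386 and 440.4 CPM in uninduced and 357 and 396 in induced WT cells, 353 in uninduced and 257 and 257 in induced S34F cells, and 387 in uninduced and 317 and 323 in induced Q157R cells, and its difference was -0.55 ± 0.15 without the block (edgeR adjusted p = 0.0889) and -0.55 ± 0.13 with it (edgeR adjusted p = 0.0109). The IGF2BP proteins, oncofetal regulators of mRNA stability, gave -0.27 ± 0.16 for IGF2BP1, -0.39 ± 0.15 for IGF2BP2 and 0.21 ± 0.22 for IGF2BP3, and none passed either fit (adjusted p = 0.0551 to 0.342 with the block, edgeR).

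Of the mainly nuclear proteins, TAF15, a FET protein that binds RNA and RNA polymerase II, fell with the block. TAF15 (ENSG00000270647.5; chromosome 17, 35713791 to 35864615, plus strand) stood at 175 and 197 CPM in uninduced and 131 and 120.0 in induced WT cells, 152 in uninduced and 86.6 and 80.9 in induced S34F cells, and 153 in uninduced and 108 and 112 in induced Q157R cells. The induced S34F libraries were the lowest and the uninduced WT libraries the highest. Of its exon bases 27.4% lie under a gene on the other strand. Its difference from induced WT was -0.58 ± 0.15 without the block (edgeR adjusted p = 0.0815) and -0.59 ± 0.13 with it (edgeR adjusted p = 0.0109). EWSR1, its paralog, was at -0.28 ± 0.17 and TARDBP, which encodes TDP-43, at 0.01 ± 0.28, neither past the threshold. HDAC6, the tubulin deacetylase that binds G3BP1, was at 63.6 and 98.7 CPM in induced WT and 58.1 and 71.4 in induced S34F cells, which overlapped (-0.33 ± 0.29, edgeR adjusted p = 0.524, or 0.177 with the block).

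**Figure D2:**
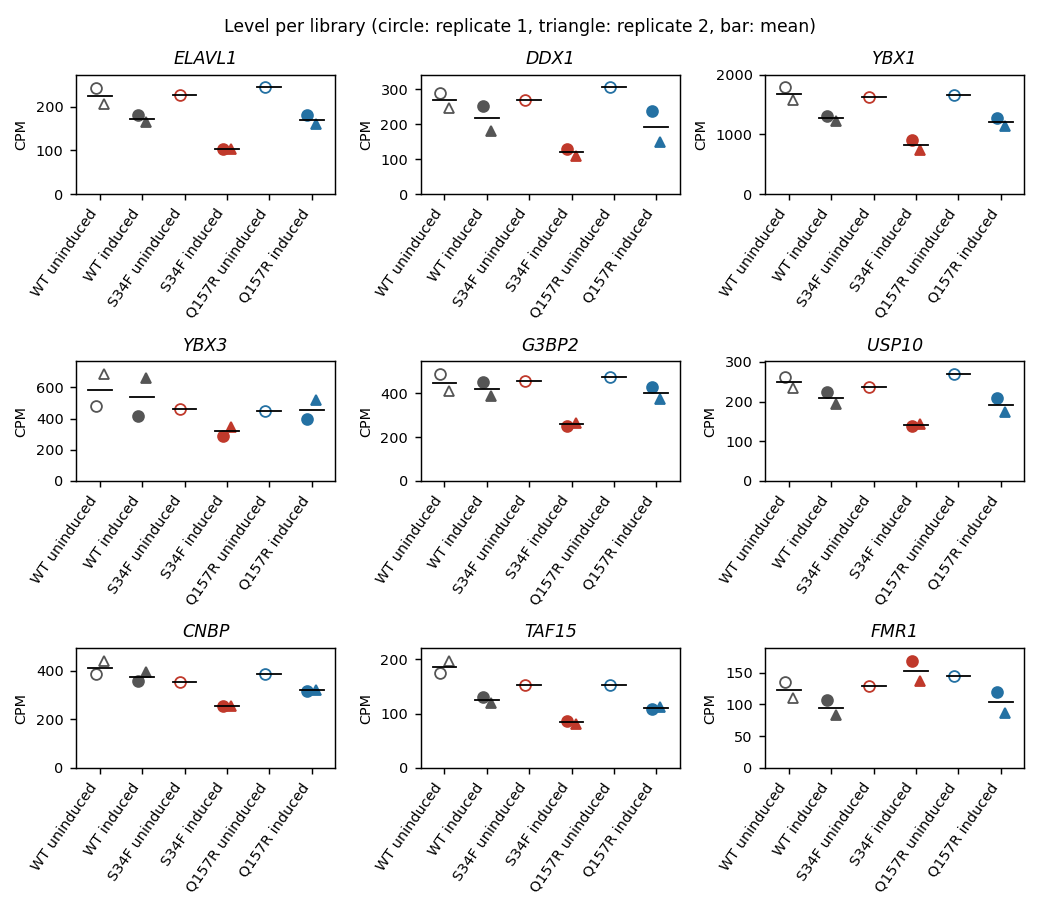
Each panel gives the CPM of 1 gene (y axis from 0) in the 6 RNA-seq groups, with a circle for replicate 1, a triangle for replicate 2 and a bar at the group mean; open symbols are uninduced cells. ELAVL1, DDX1, YBX1, G3BP2, USP10, CNBP and TAF15 are lowest in induced S34F cells, and YBX3 shows the gap between replicate 1 and replicate 2. FMR1 has its highest group mean in induced S34F cells, where replicate 2 lies below the uninduced Q157R library.

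The promoters of the members that fell with the block in all 3 comparisons of induced S34F cells (against WT, against Q157R and against uninduced S34F, which share the induced S34F libraries) are shown because they were called in each of those comparisons. Over all genes 6.82% fell in all 3, and of the members 17.5%; the members shown were picked for passing, so nothing is read from that count. They are G3BP2, USP10, ELAVL1, ATXN2L, DDX1, YBX1 and YBX3. RefSeq promoter windows on GRCh38.p14, from 250 bases before to 50 bases after a start, were matched for 31 of the 40 members and 6 of these 7. No window was matched for ELAVL1, PABPC1, PABPC4, ATXN2, LSM14A, STAU2, AGO2, IGF2BP1 and TAF15. Of these 6, 5 had 1 window. That of ATXN2L held none of the motifs searched and is left out, and the 4 printed, which each held at least 1, are chr2:15591618-15591917 for DDX1, chr16:84699750-84700049 for USP10 and chr1:42682168-42682467 for YBX1 on the plus strand and chr12:10723274-10723573 for YBX3 on the minus strand, written 5′ to 3′ in the direction of the gene. Capitals mark matches, on either strand, to the ETS core, the GC box, the CCAAT box, the E-box, the AP-1 site or the cyclic AMP response element, whose letters follow the sequences.
DDX1: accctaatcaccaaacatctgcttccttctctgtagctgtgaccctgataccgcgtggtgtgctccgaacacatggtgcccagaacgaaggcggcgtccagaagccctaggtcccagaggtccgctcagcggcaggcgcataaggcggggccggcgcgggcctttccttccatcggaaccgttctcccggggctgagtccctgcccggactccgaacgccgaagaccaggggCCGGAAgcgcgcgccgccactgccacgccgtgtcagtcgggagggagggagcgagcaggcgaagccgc
USP10: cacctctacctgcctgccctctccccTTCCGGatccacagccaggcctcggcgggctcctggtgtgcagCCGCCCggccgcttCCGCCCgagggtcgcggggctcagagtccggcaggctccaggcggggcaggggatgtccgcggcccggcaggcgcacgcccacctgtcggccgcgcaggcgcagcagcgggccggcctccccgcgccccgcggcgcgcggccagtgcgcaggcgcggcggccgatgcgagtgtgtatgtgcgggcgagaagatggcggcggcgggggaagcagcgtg
YBX1: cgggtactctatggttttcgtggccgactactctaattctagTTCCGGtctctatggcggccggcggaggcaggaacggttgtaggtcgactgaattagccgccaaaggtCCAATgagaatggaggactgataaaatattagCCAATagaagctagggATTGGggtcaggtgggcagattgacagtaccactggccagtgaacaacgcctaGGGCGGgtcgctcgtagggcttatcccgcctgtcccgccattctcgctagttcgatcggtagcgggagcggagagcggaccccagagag
YBX3: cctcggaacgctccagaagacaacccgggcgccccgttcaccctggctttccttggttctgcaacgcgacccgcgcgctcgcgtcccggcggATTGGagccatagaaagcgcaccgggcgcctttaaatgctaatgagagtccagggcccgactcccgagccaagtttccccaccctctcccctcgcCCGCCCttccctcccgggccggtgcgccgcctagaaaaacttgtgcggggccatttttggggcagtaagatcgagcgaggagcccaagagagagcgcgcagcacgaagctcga
The windows of DDX1, USP10 and YBX1 each held 1 ETS core, and YBX1 held 3 CCAAT boxes.

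Counting a gene as holding a motif when any of its windows does, the ETS core, spelled CCGGAA, was in 4 of these 6 genes, 12 of the 31 members and 17.2% of all 35116 windows. The GC box, spelled GGGCGG, was in 4 of these 6 genes, 22 of the 31 members and 45% of all 35116 windows. The CCAAT box, spelled as its name, was in 3 of these 6 genes, 14 of the 31 members and 34.6% of all 35116 windows. The E-box, spelled CACGTG, was in 1 of these 6 genes, 6 of the 31 members and 7.26% of all 35116 windows. The cyclic AMP response element, spelled TGACGTCA, was in 1 of these 6 genes, 1 of the 31 members and 1.85% of all 35116 windows. The AP-1 site, spelled TGACTCA, was in 0 of the 6, 2 of the 31 and 4.95% of all windows. No 2 of these motifs share letters where they were marked in the printed windows. Genes with several windows have more chances to hold a match than a single window, and a match describes letters only.

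Induced Q157R cells were set against induced WT cells in the same way, and the members stood close to WT. Of the 40, 0 passed by edgeR, where 0% of all genes were called, with 1 at an unadjusted p under 0.05 (3.36% of all genes) and 0 called by DESeq2 (0.0141%). With the block it was 0 as well (0.0188% of all genes). The members' log2 fold changes ran from -0.27 to 0.39, with a median of -0.03 beside -0.03 for protein-coding genes and -0.01 for all genes. Libraries did not overlap for 4 members that were lower (13.4% of all genes) and 6 that were higher (13%). The lowest unadjusted p belonged to MOV10, at 59.2 and 65.9 CPM in induced WT and 83.6 and 80.6 in induced Q157R cells (0.39 ± 0.16, edgeR adjusted p = 1, or 0.477 with the block). DDX6 was at -0.27 ± 0.14, NUFIP2, a partner of FMRP, at 0.24 ± 0.16, CNBP at -0.23 ± 0.15, PABPC4, a poly(A)-binding protein, at -0.22 ± 0.15 and AGO2 at 0.20 ± 0.17. Each of these 5 missed the threshold (edgeR adjusted p = 1 each; 0.61 to 0.741 with the block). The next by role were PRRC2A at -0.16 ± 0.19, TIAL1 at 0.04 ± 0.15, TIA1 at 0.04 ± 0.17, ATXN2 at 0.16 ± 0.15, FXR2 at 0.11 ± 0.16 and FXR1 at 0.11 ± 0.17. PUM2, which represses mRNAs with Pumilio elements, was at 0.14 ± 0.16, IGF2BP3 at -0.19 ± 0.22, TAF15 at -0.19 ± 0.15, EWSR1 at 0.17 ± 0.17 and HDAC6 at -0.17 ± 0.29. ELAVL1, at 182 and 160.0 CPM, differed from WT by -0.02 ± 0.16 and G3BP2 by -0.06 ± 0.17.

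**Figure D3:**
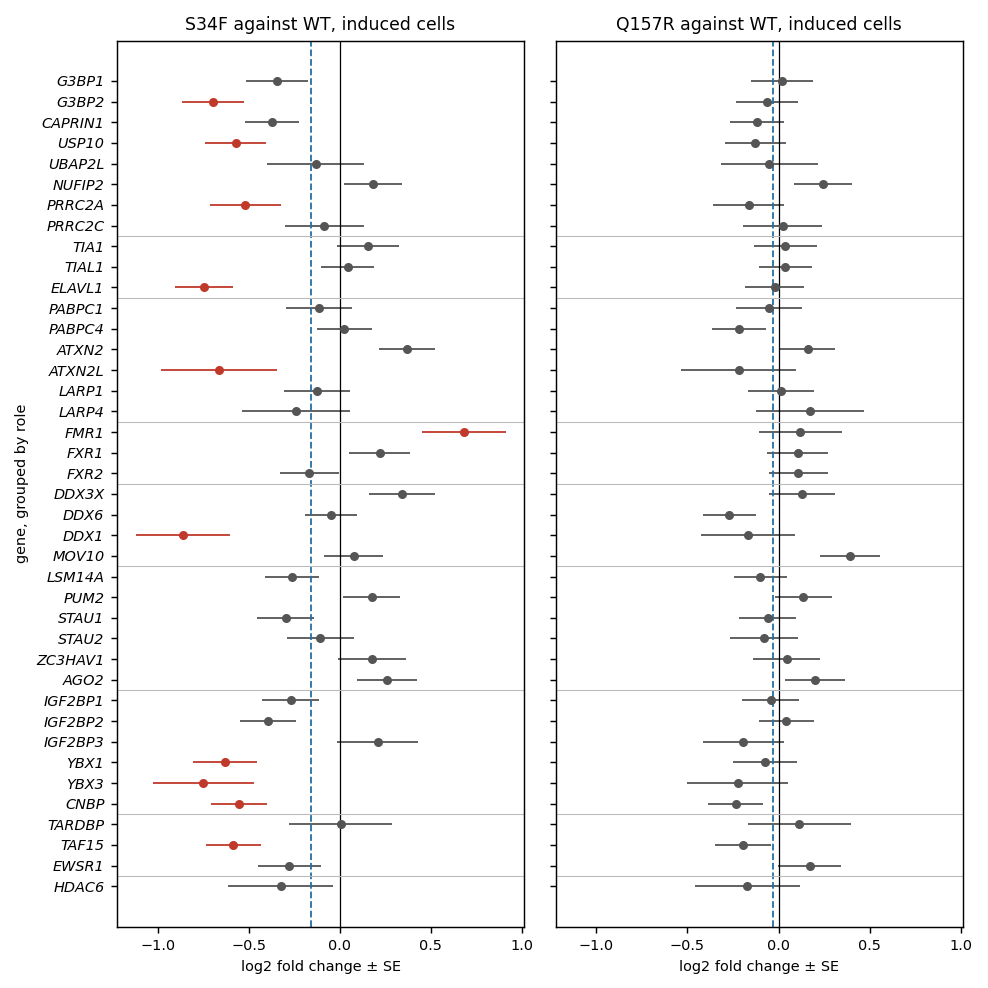
Points are log2 fold changes of the 40 genes against induced WT cells (x axis; bars are standard errors from edgeR without the block), for S34F on the left and Q157R on the right. Red points passed the threshold with the replicate block, the dashed line is the median of protein-coding genes (-0.16 and -0.03), and the S34F values spread from -0.86 to 0.68 where those of Q157R spread from -0.27 to 0.39.

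The mutants were also compared with each other. Of the 40 members, 0 passed between induced S34F and induced Q157R cells by edgeR (0.559% of all genes called), 9 had an unadjusted p under 0.05 (21.5% of all genes) and 2 were called by DESeq2 (7.95%). These shares are near those of all genes. With the block, 9 were lower in S34F and FMR1 was higher, 25% of the members beside 20% of all genes. Of all 21300 genes, 1809 were higher and 2452 lower in that fit. ELAVL1 differed by -0.73 ± 0.16 (edgeR adjusted p = 0.072; 0.00412 with the block), G3BP2 by -0.63 ± 0.17 (edgeR adjusted p = 0.101; 0.00938 with the block) and DDX1 by -0.69 ± 0.26 (edgeR adjusted p = 0.182; 0.0104 with the block). FMR1 differed by 0.56 ± 0.23 (edgeR adjusted p = 0.21; 0.0115 with the block), YBX1 by -0.56 ± 0.18 (edgeR adjusted p = 0.138; 0.0138 with the block) and YBX3 by -0.53 ± 0.28 (edgeR adjusted p = 0.311; 0.0246 with the block). These comparisons reuse the induced S34F libraries of the comparison with WT. USP10 gave -0.44 ± 0.17 (edgeR adjusted p = 0.184; 0.0388 with the block) and ATXN2L -0.44 ± 0.32 (edgeR adjusted p = 0.454; 0.0451 with the block). IGF2BP2, at 104 and 103 CPM in induced Q157R and 74.7 and 78.5 in induced S34F cells, gave -0.44 ± 0.15 (edgeR adjusted p = 0.161; 0.0405 with the block), and EWSR1, at 466 and 375 CPM in induced Q157R and 312 and 304 in induced S34F cells, gave -0.45 ± 0.17 (edgeR adjusted p = 0.189; 0.0412 with the block). TAF15 missed with -0.39 ± 0.15 (edgeR adjusted p = 0.194; 0.0619 with the block). Differences of MOV10 (-0.32), FXR2 (-0.28), PABPC4 (0.24), STAU1 (-0.24), LSM14A (-0.17), TIA1 (0.12) and HDAC6 (-0.16) passed neither fit. The members' median was -0.16, that of protein-coding genes -0.12 and that of all genes 0.00, and 18 members were lower (25.5% of all genes) and 7 higher (27.8%) with no overlap.

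Induced cells were set against uninduced cells of the same line, the controls of the RNA-seq part. With TMM scaling most members were lower after doxycycline in every line. Of the 40, 36 had a negative log2 fold change in WT, 30 in S34F and 31 in Q157R cells (52.7%, 57.4% and 51.5% of protein-coding genes). The members' medians were -0.23, -0.27 and -0.24, beside -0.02, -0.13 and -0.02 for the protein-coding genes and 0.01, 0.06 and 0.05 for all genes tested. The gap between the members' and the protein-coding medians was -0.21, -0.14 and -0.23. It was the same to 2 decimals with libraries scaled on protein-coding genes or to plain library totals. Such scaling moves all genes by about the same amount, so this is no test of the gap. The block, which could move the gap, gave -0.20, -0.12 and -0.18 in WT, S34F and Q157R cells. Scaling on protein-coding genes moved the protein-coding median of the S34F comparison by 0.16 and plain library totals moved it by 0.26. With plain totals 34, 21 and 28 members had a negative value (42.1%, 42.5% and 44.6% of protein-coding genes), and the members' median in S34F was -0.01. Single members seldom passed a test. By edgeR the members called were 0 of 40 in WT (0% of all genes called), 1 in S34F (1.96%) and 0 in Q157R (0%). At an unadjusted p under 0.05 stood 6, 10 and 4 of the 40 members (6.4%, 25.2% and 8.86% of all genes), so in S34F and Q157R their share was near the background. DESeq2 called 0, 7 and 0 members (0.207%, 11.3% and 0.453% of all genes with an adjusted p).

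The libraries of the same number gave 4 pairs that share no library, replicate 1 of each line and replicate 2 of WT. In these, 23 of 40 members were lower after doxycycline in all 4 pairs and 0 were higher in all 4. Over all genes tested the shares were 18.2% lower and 17.9% higher, and over protein-coding genes 24.5% and 15.7%, against 57.5% and 0% of the members. With the libraries scaled on protein-coding genes the count was 18 lower and 1 higher (protein-coding background 20.7% lower), and with plain library totals 17 lower and 3 higher (15.9% lower). Of the 8 scaffolds, 7 were among the 23, all but NUFIP2. G3BP1 stood at -0.27, -0.46, -0.55 and -0.32 (log2 of induced over uninduced, in WT replicate 1, WT replicate 2, S34F and Q157R). In the same order ELAVL1 stood at -0.43, -0.32, -1.15 and -0.43, and YBX1 at -0.45, -0.36, -0.85 and -0.37. TAF15 stood at -0.42, -0.71, -0.82 and -0.51. The FMR1 family, on the other hand, had no member lower in all 4 pairs, since FMR1 was higher in the S34F pair (0.38) and lower in the 3 others, and FXR1 was lower in 1 pair.

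**Figure D4:**
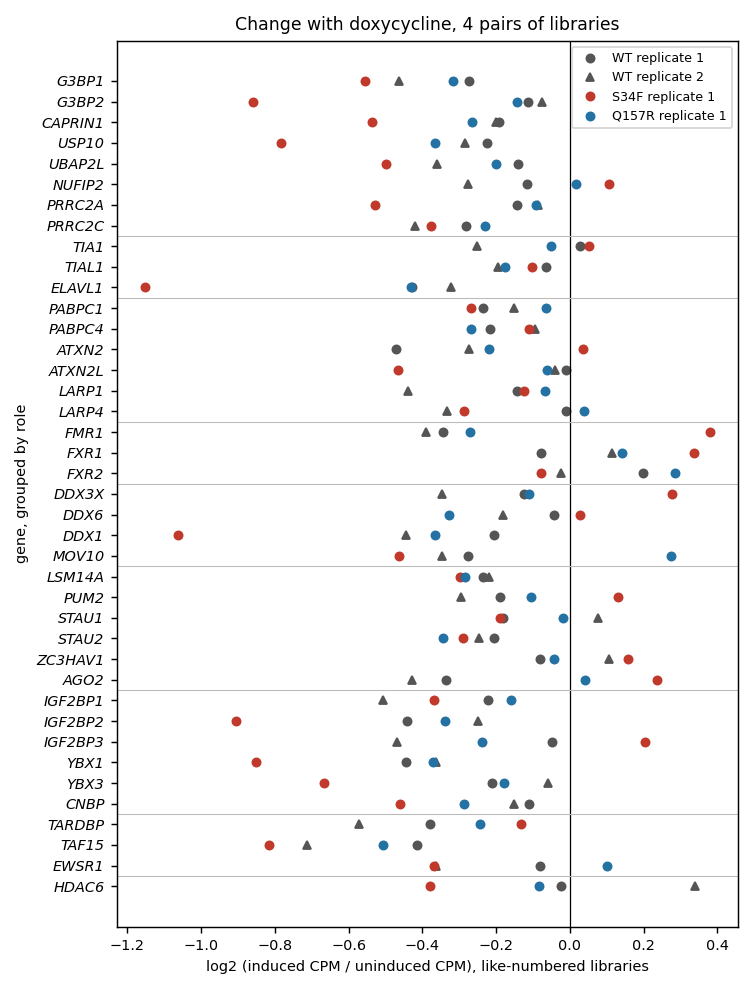
Points are the log2 ratio of induced to uninduced CPM (x axis) for each of the 40 genes in 4 pairs of like-numbered libraries, grey for WT (circle replicate 1, triangle replicate 2), red for S34F and blue for Q157R. Most points lie left of 0, the S34F points farthest left at ELAVL1 and DDX1, and FMR1, FXR1 and AGO2 have S34F points right of 0.

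In the WT line TAF15 had the lowest fold change of the members, 175 and 197 CPM before and 131 and 120.0 after induction (-0.56 ± 0.15, edgeR adjusted p = 0.702, or 0.0891 with the block). ELAVL1 was at -0.38 ± 0.16 (edgeR adjusted p = 0.775; 0.205 with the block), YBX1 at -0.41 ± 0.18 (edgeR adjusted p = 0.775; 0.187 with the block), ATXN2 at -0.37 ± 0.15 (edgeR adjusted p = 0.775; 0.218 with the block) and AGO2 at -0.39 ± 0.17 (edgeR adjusted p = 0.775; 0.215 with the block). With the block 0 of 40 members passed in this line (0.418% of all genes). 23 members were lower with no overlap (16.3% of all genes) and 0 higher (17.8%). IGF2BP1 was at -0.37 ± 0.16, G3BP1 at -0.37 ± 0.17, FMR1 at -0.36 ± 0.23, TARDBP at -0.46 ± 0.28, PRRC2C, a large protein needed for efficient granule formation, at -0.34 ± 0.22 and MOV10 at -0.31 ± 0.16. LARP1 at -0.29 ± 0.18, PUM2 at -0.25 ± 0.16, DDX3X at -0.23 ± 0.18, TIAL1 at -0.13 ± 0.15, FXR2 at 0.08 ± 0.16 and HDAC6 at 0.19 ± 0.29 complete those with the lowest p of each role (edgeR adjusted p = 0.775 to 0.952 over these 12).

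In the S34F line ELAVL1 fell without and with the block, the only member of the 40 for which an edgeR test passed in both fits of any comparison. It went from 228 CPM in the uninduced library to 103 and 104 after induction, 2.21-fold lower, or -1.14 ± 0.19 without the block (edgeR adjusted p = 0.0381) and -1.07 ± 0.16 with it (edgeR adjusted p = 0.00184). The uninduced group has 1 library, which is assumed to vary like the others. Leaving out either induced S34F library took the call away (edgeR adjusted p = 0.259 and 0.176), as did scaling on protein-coding genes (0.0534) or to plain library totals (0.0618). With the block, 19.2% of all genes were called in either direction, 1754 higher and 2345 lower of 21300. Of the members 0 rose and 11 fell, 27.5% of the 40. Among them DDX1 stood at -1.17 ± 0.31 without the block (edgeR adjusted p = 0.0802) and -0.97 ± 0.18 with it (edgeR adjusted p = 0.0051). YBX1 stood at -0.99 ± 0.21 without the block (edgeR adjusted p = 0.0556) and -0.91 ± 0.16 with it (edgeR adjusted p = 0.00445), and TAF15 at -0.86 ± 0.18 without the block (edgeR adjusted p = 0.0554) and -0.86 ± 0.17 with it (edgeR adjusted p = 0.00609). Each of these missed the threshold without the block. IGF2BP2 stood at -0.87 ± 0.18 without the block (edgeR adjusted p = 0.0554) and -0.84 ± 0.17 with it (edgeR adjusted p = 0.00683), YBX3 at -0.54 ± 0.33 without the block (edgeR adjusted p = 0.344) and -0.77 ± 0.17 with it (edgeR adjusted p = 0.012) and G3BP2 at -0.82 ± 0.20 without the block (edgeR adjusted p = 0.0712) and -0.74 ± 0.17 with it (edgeR adjusted p = 0.0121). USP10 stood at -0.75 ± 0.20 without the block (edgeR adjusted p = 0.082) and -0.68 ± 0.17 with it (edgeR adjusted p = 0.0169) and ATXN2L at -0.28 ± 0.38 without the block (edgeR adjusted p = 0.685) and -0.56 ± 0.17 with it (edgeR adjusted p = 0.0377), the latter with the gap between its replicates given above. PRRC2A stood at -0.38 ± 0.23 without the block (edgeR adjusted p = 0.344) and -0.52 ± 0.16 with it (edgeR adjusted p = 0.0452) and CNBP at -0.46 ± 0.18 without the block (edgeR adjusted p = 0.169) and -0.50 ± 0.16 with it (edgeR adjusted p = 0.0453). IGF2BP2 had stood at 140.0 CPM before induction and was at 74.7 and 78.5 after it. Those that passed neither fit included FXR1 at 0.34 ± 0.21, FMR1 at 0.24 ± 0.28, AGO2 at 0.28 ± 0.20, MOV10 at -0.40 ± 0.20, LSM14A at -0.30 ± 0.18 and EWSR1 at -0.39 ± 0.21. TIAL1 at -0.08 ± 0.18, TIA1 at -0.01 ± 0.21, LARP4, which binds poly(A) tails, at -0.48 ± 0.36, LARP1 at -0.18 ± 0.22 and HDAC6 at -0.22 ± 0.35 also passed neither.

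Whether the S34F line changed more than the WT line was tested as the difference of the 2 changes. No member passed, without the block (0% of all genes called, 3 members at an unadjusted p under 0.05 beside 8.19% of all genes) or with it (0.704% of all genes). For ELAVL1 the S34F change minus the WT change was -0.76 ± 0.25 (edgeR adjusted p = 0.591; 0.137 with the block), for G3BP2 -0.72 ± 0.27 (edgeR adjusted p = 0.594; 0.175 with the block) and for AGO2 0.66 ± 0.26 (edgeR adjusted p = 0.596; 0.21 with the block). The same difference for Q157R gave 0 members called in either fit (0% and 0.00469% of all genes; 1.23% at an unadjusted p under 0.05), the lowest p being that of MOV10 at 0.56 ± 0.26 (edgeR adjusted p = 1; 1 with the block). So the deeper values of the S34F line were not separated from those of the WT line by this test.

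In the Q157R line no member passed without or with the block (0.263% of all genes called with it). TAF15 went from 153 to 108 and 112 CPM (-0.48 ± 0.18, edgeR adjusted p = 0.555, or 0.235 with the block) and ELAVL1 from 245 to 182 and 160.0 CPM (-0.52 ± 0.19, edgeR adjusted p = 0.555, or 0.241 with the block). DDX1 was at -0.66 ± 0.31, USP10 at -0.49 ± 0.20, G3BP1 at -0.47 ± 0.20, YBX1 at -0.45 ± 0.21, FMR1 at -0.49 ± 0.27, TARDBP at -0.47 ± 0.34, PABPC4 at -0.36 ± 0.18 and IGF2BP2 at -0.35 ± 0.18. Above 0 lay FXR1 at 0.27 ± 0.21. LARP1 at -0.24 ± 0.22, DDX6 at -0.33 ± 0.17, TIAL1 at -0.25 ± 0.18, LSM14A at -0.21 ± 0.18, STAU2 at -0.16 ± 0.23 and HDAC6 at 0.29 ± 0.36 missed as well.

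Genes that act around the granules were read beside the members, in induced S34F against induced WT cells. Of 21 translation initiation factors found in granules, DESeq2 called 2, beside 10.7% of the genes it gave an adjusted p. In the fit with the block 12 of the 21 fell, where 2743 of all 21300 genes fell. Of the 12, 10 were subunits of eIF3, the factor that joins the small ribosomal subunit to the mRNA. Such subunits, EIF3A to EIF3M, also make up most of the list. EIF3I was at 272 and 260.0 CPM in induced WT and 166 and 166 in induced S34F cells (-0.68 ± 0.14, edgeR adjusted p = 0.0549, or 0.00355 with the block), and EIF3B at 349.6 and 274 CPM in induced WT and 196 and 174 in induced S34F cells (-0.75 ± 0.23, edgeR adjusted p = 0.108, or 0.00468 with the block). The eIF3 subunits were singled out after their values were seen. Over the list, 0 rose and 0 fell without the block and 0 rose and 12 fell with it, with a median of -0.45, and EIF4B and EIF4G2, the most abundant, were at 0.14 ± 0.32 and -0.42 ± 0.17. Of 17 genes of the eIF2 pathway, whose kinases, exchange factor and phosphatase set the signal for assembly, 0 rose and 0 fell without the block and 0 rose and 6 fell with it, with a median of -0.14. EIF2S1, the subunit whose phosphorylation stalls initiation, was at 136 and 90.9 CPM in induced WT and 64.7 and 56.7 in induced S34F cells (-0.91 ± 0.26, edgeR adjusted p = 0.097, or 0.00333 with the block). The kinases EIF2AK1, EIF2AK2, EIF2AK3 and EIF2AK4 were at -0.03, -0.04, 0.34 and 0.00, and none passed either fit. EIF2S1 and the kinases were also chosen after their values were seen. The most abundant of the pathway, PPP1CC, a phosphatase subunit, and EIF2S3, a subunit of eIF2, were at 0.09 ± 0.15 and -0.41 ± 0.25.

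Of 20 P-body decay factors, 0 rose and 1 fell without the block and 1 rose and 3 fell with it, with a median of -0.01. LSM4, a subunit of the ring that binds deadenylated mRNAs for decapping, was at 78.6 and 74.7 CPM in induced WT and 40.3 and 38.9 in induced S34F cells (-0.95 ± 0.15, edgeR adjusted p = 0.0443, or 0.00121 with the block). Of the 16 tested of 18 genes of granule clearance and chaperones, 0 rose and 0 fell without the block and 0 rose and 2 fell with it, with a median of -0.08, and HSPA8 and VCP, the most abundant, were at -0.03 ± 0.48 and -0.62 ± 0.32. With the block the share called was 57.1% of the initiation factors, 35.3% of the eIF2 pathway, 20% of the P-body factors and 12.5% of the clearance genes, beside the 22.4% of all genes given above.

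In induced Q157R against induced WT cells the medians of the 4 lists (eIF2 pathway, initiation factors, P-body factors, clearance) were -0.02, -0.07, -0.01 and 0.05, and none of their genes passed without or with the block. Between S34F and Q157R the medians were -0.20, -0.32, 0.01 and -0.14, and PAN3, a subunit of a deadenylase, was higher in S34F (0.95 ± 0.15, edgeR adjusted p = 0.0498, or 0.00172 with the block). With induction the medians of the 4 lists, in the same order, were -0.05, -0.12, -0.13 and -0.06 in WT, -0.32, -0.47, -0.24 and -0.36 in S34F and -0.12, -0.16, -0.20 and -0.44 in Q157R cells. LSM4 fell in the S34F line (-1.23 ± 0.17, edgeR adjusted p = 0.034, or 0.00119 with the block), and no gene of the 4 lists passed in the WT or Q157R line in either fit. Of the marker lists, the summed monocyte and granulocyte genes, mostly LYZ and ITGAM, stood at 80.2 to 92.0 CPM in induced S34F, 44.4 to 53.6 in induced WT and 52.9 to 57.6 in induced Q157R cells. ITGAM stood at 10.3 and 14.7 CPM in induced WT, 29.7 and 40.7 in induced S34F and 19.2 and 21.0 in induced Q157R cells. In S34F against WT, 1 of the 3 genes of this list that were tested rose by edgeR without the block, beside 1.67% of all genes called. ELANE, MPO and CD14, of the same list, reached at most 0.355 CPM in any library. The summed megakaryocytic genes stood at 1446 to 1912 CPM in induced S34F and 2223 to 3079.9 in induced WT cells. Their part in the members' values was not tested.

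In the crosslinking tables the rows of the members held few counts. They made up 1.68% of the RNA-seq gene counts and 0.0707% and 0.0625% of the eCLIP and freCLIP gene counts. The median member had 29.5 counts over the 7 eCLIP libraries and 21 over the 17 freCLIP libraries. TIA1 and LSM14A had 0 in all freCLIP libraries, which allows up to 0.708 CPM (3 counts of 4236102, with no molecular identifiers, so for counting error only). The rows of 3 genes held most counts: FXR2 with 902 in eCLIP and 437 in freCLIP, ATXN2 with 806 and 607, and FXR1 with 401 and 205. PABPC1 and YBX1, which led in RNA, had 34 and 11 in eCLIP. The order of the rows thus differed from that in RNA-seq. The 16 members with exon bases under a gene on the other strand held 80.6% of the members' eCLIP counts and 70.6% of the freCLIP counts. Among them were FXR2 under MPDU1 and SHBG (34.6% of its exon bases), ATXN2 under SH2B3 and ATXN2-AS (5.76%), and FXR1 under CCDC39 and AC108734.4 (2.00%). At the largest overlaps ATXN2L (68.9%) had 49 eCLIP counts, FXR2 902, PABPC4 (30.3%) 143 and TAF15 (27.4%) 12. The levels of the genes on the other strand were not set beside these counts. Among the 100 rows with most eCLIP counts, 88 lay under a gene on the other strand, 78 of them with that gene the higher in RNA-seq, against 46 and 0 of the 100 top rows of RNA-seq. Rows of the antisense type held 27.6% of eCLIP and 26.8% of freCLIP counts and 0.498% in RNA-seq. The part of strand in these counts was not tested, so the crosslinking rows are given as counts of rows and not as binding to the members.

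**Figure D5:**
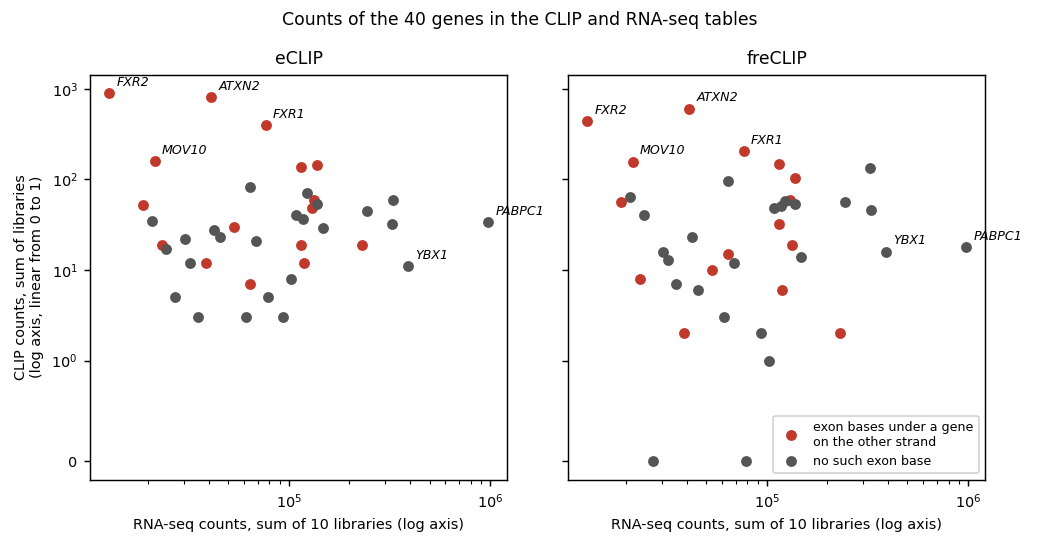
Each point is 1 of the 40 genes, with its summed RNA-seq counts on the x axis (log axis) and its summed eCLIP (left) or freCLIP (right) counts on the y axis (log above 1, linear from 0 to 1). Red points have exon bases under a gene on the other strand. FXR2, ATXN2, FXR1 and MOV10 stand at the top although their RNA counts are below those of PABPC1 and YBX1.

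Of the members, 16 passed the filter on low counts in eCLIP and 7 in freCLIP (PABPC4, ATXN2, FXR1, FXR2, MOV10, DDX1 and AGO2), and 0 were called in any comparison, with DESeq2 also at 0. Between U2AF1 and U2AF2 eCLIP, where 0% of 10521 rows were called, the 16 ran from -0.78 to 0.85 and 0 had an unadjusted p under 0.05 (5.71% of all rows). Without U2AF1 replicate 1 the members called were 4, where 55.2% of all rows were, and without U2AF1 replicate 2 there was 1, beside 16.9% of all rows. ATXN2 had 170, 151 and 76 counts in the U2AF1 libraries (replicates 1, 1a and 2) and 105, 129, 109 and 66 in the U2AF2 libraries (1, 1a, 2 and 2a), a difference of 0.16 ± 0.35 after scaling. FXR2 had 213, 192 and 12 with U2AF1 against 148, 132, 118 and 87 with U2AF2 (-0.78 ± 0.67), and FXR1 92, 73 and 20 against 60, 61, 58 and 37 (-0.37 ± 0.35; edgeR adjusted p = 0.797 to 0.921 for the 3). U2AF1 replicate 2 held the fewest counts of FXR2 and FXR1.

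Between the light and heavy fractions of WT cells, where 0.0732% of 6833 rows were called, FXR1 had the lowest p, with 2, 0 and 0 counts in the 3 light and 18, 5, 52 and 47 in the 4 heavy libraries (edgeR adjusted p = 0.432). FXR2 had 20, 22 and 3 against 25, 13, 75 and 29 (-0.29 ± 0.83) and ATXN2 12, 52 and 27 against 13, 12, 139 and 167 (-0.19 ± 0.75). In the light fraction, S34F against WT (0.337% called) gave -0.50 ± 0.83 for ATXN2 and 0.36 ± 0.90 for FXR2, and Q157R against WT (7.6% called, with a median of -1.19 over all rows) gave -0.50 ± 0.98 and -0.24 ± 1.05. MOV10, at 0 and 0 counts in light Q157R and 2, 9 and 4 in light WT libraries, missed the threshold (edgeR adjusted p = 0.162), and without Q157R replicate 2 the members called were 1, beside 13.5% of all rows. In the heavy fraction, S34F against WT (0.132% called) gave -0.82 ± 0.76 for ATXN2 and 0.37 ± 0.80 for FXR2, and Q157R against WT (0% called) -1.22 ± 0.91 and 0.39 ± 0.90. PABPC4 had 0 and 1 counts in heavy Q157R and 9, 8, 40 and 11 in heavy WT libraries (edgeR adjusted p = 1). DDX1 and AGO2 had 97 and 58 counts over all 17 libraries.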

How the data were processed

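The authors deposited whole-number read counts per gene, not normalized, in 1 table for each assay used here. HTSeq, HISAT2, STAR (2.5.3a and 2.7.0f), cutadapt, SAMtools, DESeq2 and edgeR, with the build GRCh38.p10, stand in the submitters' processing notes with no role for each; annotation and strand setting are not given in the sources used here. Lines that name no gene were left out, among them the reads counted under no feature, 19.0% to 33.7% of the RNA-seq reads. Gene IDs were matched to GENCODE 29 (58039 of 58347), which gave symbols, types, exon lengths and coordinates. All 10 RNA-seq, 7 eCLIP and 17 freCLIP libraries were used; 9 TimeLapse-seq samples were not analysed here.

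From the counts, edgeR 4.0.16 gave CPM (TMM scaling), log2 fold changes with SE, and p from its robust quasi-likelihood test (filterByExpr, minimum count 10; one mean per group, all libraries of an assay in 1 fit, technical eCLIP replicates summed), adjusted by Benjamini-Hochberg over all genes tested, threshold 0.05. The code was tested on simulated counts. Deviations of like-numbered RNA-seq libraries from their group means correlated at r = 0.211 to 0.652 over 12 pairs. Within a group these deviations mirror each other, so each r occurs for both replicate numbers. The 12 pairs therefore repeat their values and are not independent. On this ground the replicate number was taken to pair the RNA-seq libraries, and values with it as a block stand beside the results. Alternatives were that block, DESeq2 1.42.0, RLE scaling, no filter, only the compared groups, protein-coding genes only, biological eCLIP libraries only, leaving out each replicate and, chosen after the values were seen, library totals without TMM.

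The members and lists were chosen with earlier results of these data known. Every member that passed is named, then up to 2 per role with the lowest p, and for related lists the called or most abundant genes. The difference between lines in the change with induction, the 4 like-numbered pairs and the promoter motifs were chosen after the values were seen. No protein sequence is shown, since no protein table was used here.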

Additional observations from a re-analysis of the deposited data

How the results depend on the processing

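The genes called without the block were 356 for S34F against WT, 0 for Q157R against WT, 119 for S34F against Q157R, 0 for WT induction, 418 for S34F induction, 0 for Q157R induction, 0 for the eCLIP antibodies, 5 for light against heavy, 23 for light S34F against WT, 519 for light Q157R against WT, 9 for heavy S34F against WT and 0 for heavy Q157R against WT. With the replicate number as a block they were 4779 for S34F against WT, 4 for Q157R against WT, 4261 for S34F against Q157R, 89 for WT induction, 4099 for S34F induction, 56 for Q157R induction, 11 for the eCLIP antibodies, 333 for light Q157R against WT and 17 for heavy S34F against WT, and the members called 11 for S34F against WT, 10 for S34F against Q157R and 11 for S34F induction. With DESeq2 they were 1659 for S34F against WT, 3 for Q157R against WT, 1332 for S34F against Q157R, 33 for WT induction, 1851 for S34F induction, 74 for Q157R induction, 30 for the eCLIP antibodies, 14 for light against heavy, 146 for light S34F against WT, 833 for light Q157R against WT, 43 for heavy S34F against WT and 1 for heavy Q157R against WT, and the members called 6 for S34F against WT, 2 for S34F against Q157R and 7 for S34F induction. With no filter on low counts they were 2410 for S34F against WT, 15 for Q157R against WT, 2135 for S34F against Q157R, 130 for WT induction, 2992 for S34F induction, 569 for Q157R induction, 24 for the eCLIP antibodies, 11 for light S34F against WT, 263 for light Q157R against WT and 1 for heavy S34F against WT, and the members called 6 for S34F against WT, 3 for S34F against Q157R and 7 for S34F induction. With only the compared groups in the fit they were 0 for S34F against WT, 0 for S34F against Q157R, 4357 for S34F induction, 8 for Q157R induction, 4 for light S34F against WT, 0 for light Q157R against WT and 240 for heavy S34F against WT, and the members called 7 for S34F induction. With protein-coding genes only they were 128 for S34F against WT, 59 for S34F against Q157R and 149 for S34F induction, and the members called 0 for S34F induction. With library totals and no TMM they were 183 for S34F against Q157R and 236 for S34F induction, and the members called 0 for S34F induction. Leaving out each replicate in turn gave 0 to 0 for S34F against WT, 0 to 0 for S34F against Q157R, 0 to 0 for S34F induction, 0 to 6523 for the eCLIP antibodies, 2 to 5 for light against heavy, 6 to 28 for light S34F against WT, 137 to 1318 for light Q157R against WT and 0 to 2 for heavy S34F against WT, and for the members 0 to 0 for S34F induction, 0 to 4 for the eCLIP antibodies and 0 to 1 for light Q157R against WT. Leaving out any 1 induced library of the groups compared thus took away all calls of the 3 S34F comparisons without the block. In eCLIP the calls came without U2AF1 replicate 1 (6523 genes, 4 members) and without U2AF1 replicate 2 (2152 genes, 1 members). Over the members' counts, 110 settings gave a like count, 13 more and 4 fewer. Over single members that passed in a fit, 260 stayed on their side of the threshold, 66 gained a call and 4 lost it (ELAVL1), and none changed direction under the settings run. No member called with the block changed direction against the fit without it. These members were picked for passing and the settings refit the same counts, so a kept direction is no test of them. The freCLIP and eCLIP libraries share only a number (like-numbered r of 0.00176 to 0.145 and 0.0757), so their block counts are given here alone. RLE size factors and biological eCLIP libraries alone kept each count of genes and members within 1.5 times. For eCLIP a fit of only the compared groups is the same fit, and the only uninduced S34F or Q157R library could not be left out. When a replicate is left out of a group of 2, the lone library is assumed to vary like the others. Depth left 16 of 40 members for a test in eCLIP and 7 in freCLIP.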

Other observations

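The members also differed between the replicate numbers. Of the 40, 8 were higher in replicate 2 than in replicate 1 in all 4 groups with 2 RNA-seq libraries, and 9 were lower in all 4, 20% and 22.5% of the members. Over all genes tested the shares were 19.5% and 19.1%, and over protein-coding genes 21.6% and 22%, so the members' shares were near the background. HDAC6 differed by 0.27, 0.63, 0.30 and 0.68 on the log2 scale in uninduced WT, induced WT, induced S34F and induced Q157R cells. In the same order ATXN2L differed by 0.69, 0.67, 0.35 and 0.51, YBX3 by 0.51, 0.67, 0.25 and 0.37 and PRRC2A by 0.25, 0.31, 0.29 and 0.18, and PABPC1 by 0.20, 0.28, 0.20 and 0.04. On the other side, DDX1 differed by -0.23, -0.47, -0.22 and -0.68, LARP4 by -0.30, -0.62, -0.41 and -0.70, TARDBP by -0.46, -0.66, -0.26 and -0.50 and FMR1 by -0.30, -0.35, -0.31 and -0.47. These values are as large as many of the differences between genotypes. The labels give the numbers no further meaning.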
